A study of Homo sapiens with 15 samples.

Results

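The epidermal growth factor receptor EGFR, its relatives, ligands and feedback inhibitors were followed in human tumour cells grown in mice. The set holds 10 of the 60649 human genes of the count table, chosen by name: the receptors EGFR, ERBB2 and ERBB3, the ligands AREG, EREG, BTC, HBEGF and TGFA, and the inhibitors ERRFI1 and LRIG1. All 10 had a matching symbol and all 10 passed the filter on low counts that left 15435 human genes for testing. EGFR is a receptor tyrosine kinase that pairs with itself or a relative when a ligand binds, and then drives the RAS, RAF and ERK cascade and PI3-kinase signalling. Its ligands are made as membrane-anchored precursors that proteases cut free, and they can act on the cell that made them. ERRFI1, also called MIG6, binds the EGFR kinase domain and blocks it, and LRIG1 promotes removal of the receptor from the cell surface. In lung adenocarcinoma EGFR is a frequent driver and drug target. A549, the line used here, is an established human lung adenocarcinoma line.

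The tumours were xenografts of A549 cells placed under the skin of BALB/c nude mice, animals that lack mature T cells but keep macrophages and other innate cells. Mice of the stress group (n = 5) were restrained, which confines the animal as a psychological stressor, 7 days before the cells were placed. Those of the post-stress group (n = 5) were restrained 12 days after it, and those of the no-stress group (n = 5) not at all. Whether 7 and 12 days are lengths or starting points of the restraint is not stated, and all 3 groups share the line, the host strain and the site. Each tumour gave 1 library of bulk RNA, so that fewer cells of a type and less RNA per cell cannot be told apart. The p-values measure the spread between these tumours of 1 cell line.

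Total counts per library ranged from 16729091 to 19680449, of which 12877165 to 15892705 fell on human genes. The share of counts on mouse genes was 18.6% to 24.6% in stress tumours, 12.4% to 23.0% in post-stress tumours and 15.6% to 30.2% in no-stress tumours. Levels below are CPM, human counts scaled to the size of the human part of each library after TMM. On the human rows 9 of 10 A549 epithelial markers passed the filter, with a summed level of 12801 to 15356 CPM in stress, 13375 to 16509 CPM in post-stress and 13071 to 16864 CPM in no-stress tumours. KRT19 did not pass. Of 21 leukocyte, stromal, vascular and fat markers, 9 passed and none was called. DCN, a stromal proteoglycan gene, was the 1 with an unadjusted p under 0.05 in stress against no stress (2.74-fold, adjusted p = 0.143). The summed level of the 21 markers was 130 to 184 CPM in stress, 94.98 to 232 CPM in post-stress and 120 to 220 CPM in no-stress tumours. COL1A1 alone averaged 106 CPM in stress, 101 in post-stress and 120 in no-stress tumours. AIF1 and ADIPOQ were among those at 0 in every library, and 12 were under 1 CPM throughout.

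Against no stress, tumours of the stress group had higher EGFR, higher epiregulin (EREG) and betacellulin (BTC) among the ligands, and higher ERRFI1. The BTC call was lost in 7 of 15 fits that left out 1 tumour. Tumours of the post-stress group had higher EGFR, while none of the 5 ligands was called there. ERRFI1 fell just short in that group (log2 fold change 1.11, adjusted p = 0.0561). ERBB2 differed little between any of the groups. No gene of the set was called lower in any comparison, and none was called between stress and post-stress. Calls are at a Benjamini-Hochberg adjusted p under 0.05 from edgeR's quasi-likelihood test, adjusted over all 15435 human genes. The comparisons of stress and of post-stress with no stress share the 5 no-stress tumours.

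Of the 10 genes, 4 were called higher and 0 lower in stress against no stress, where 10.5% of all tested human genes were called, 5.23% higher and 5.22% lower. In post-stress against no stress 1 of 10 was called, the higher EGFR, against 0.842% of all tested genes, 0.596% higher and 0.246% lower. In stress against post-stress 0 of 10 were called, against 0.0389% of all tested genes, 0.0259% higher and 0.013% lower. There 2 of the 10, EREG and BTC, had an unadjusted p under 0.05, against 1716 of all 15435 tested genes. DESeq2's Wald test called BTC, against 207 of all genes, and limma-voom called 0 of the 10, against 6 of all genes. The median log2 fold change over the 10 was 0.59 in stress against no stress (all tested genes −0.01), 0.06 in post-stress against no stress (all tested genes −0.01) and 0.23 in stress against post-stress (all tested genes 0.00).

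**Figure D1:**
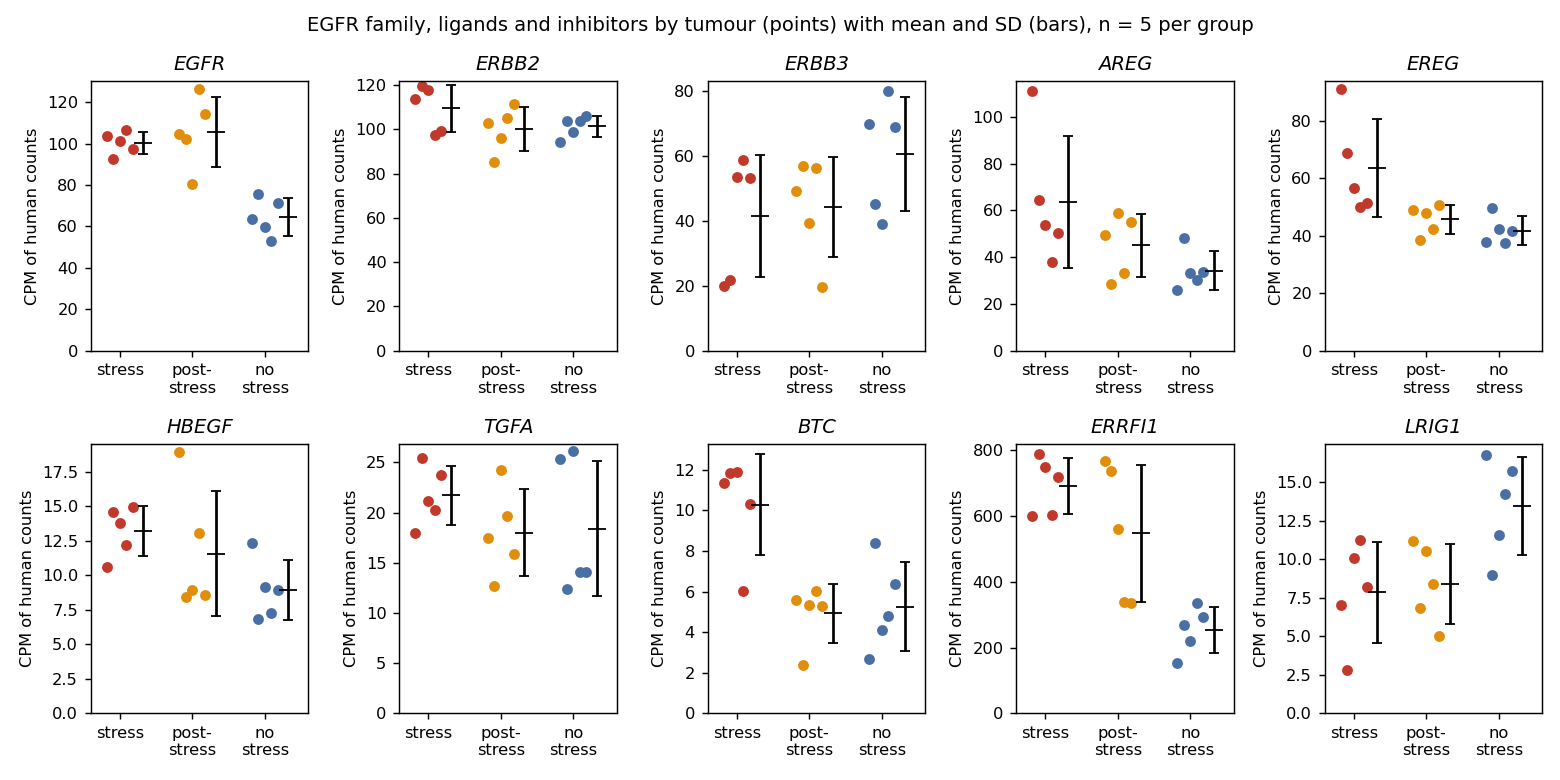
Levels of the 10 genes in CPM of human counts, with 1 point per tumour and the mean ± SD of each group beside it (n = 5 per group; linear axes that start at 0). The stress and no-stress points do not overlap for EGFR, EREG and ERRFI1, and the post-stress and no-stress points do not overlap for EGFR.

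Per kilobase of exon, ERRFI1 was the most abundant of the 10 in every group, with 165 ± 20.3 CPM per kb in stress, 131 ± 49.7 in post-stress and 60.7 ± 16.7 in no-stress tumours (SD, n = 5 each). AREG came next, with 38.5 ± 17.1 CPM per kb in stress, 27.3 ± 8.21 in post-stress and 20.7 ± 5.06 in no-stress tumours. Within each group the lowest ERRFI1 tumour exceeded the highest AREG tumour, and the lowest AREG tumour exceeded the highest tumour of every gene below it. EREG came nearest, with at most 15.9 CPM per kb in stress tumours, where AREG had at least 23.1. EREG, ERBB2, EGFR and ERBB3 followed, with group means between 4.59 CPM per kb (ERBB3 in stress) and 11.1 CPM per kb (EREG in stress). Among these EREG at 11.1 ± 2.98 and ERBB2 at 10.6 ± 1.02 CPM per kb lay within each other's spread in stress tumours. HBEGF and TGFA had the same mean of 4.38 CPM per kb in stress tumours, within the spread of ERBB3 there (4.59 ± 2.09). BTC and LRIG1 held the bottom places, with LRIG1 last in stress at 1.12 ± 0.466 and BTC last in no-stress tumours at 1.87 ± 0.781 CPM per kb. These levels depend on the transcript length used: dividing by the longest transcript or scaling to human and mouse counts together moved the group mean by more than 1 SD in 31 of 60 cases, a case being 1 gene in 1 group under 1 of these choices. ERBB2 has 10321 bases of exon and a longest transcript of 4930 bases, and AREG 1648 and 1240. The order and the separation of the genes above are therefore those by exon length.

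**Figure D2:**
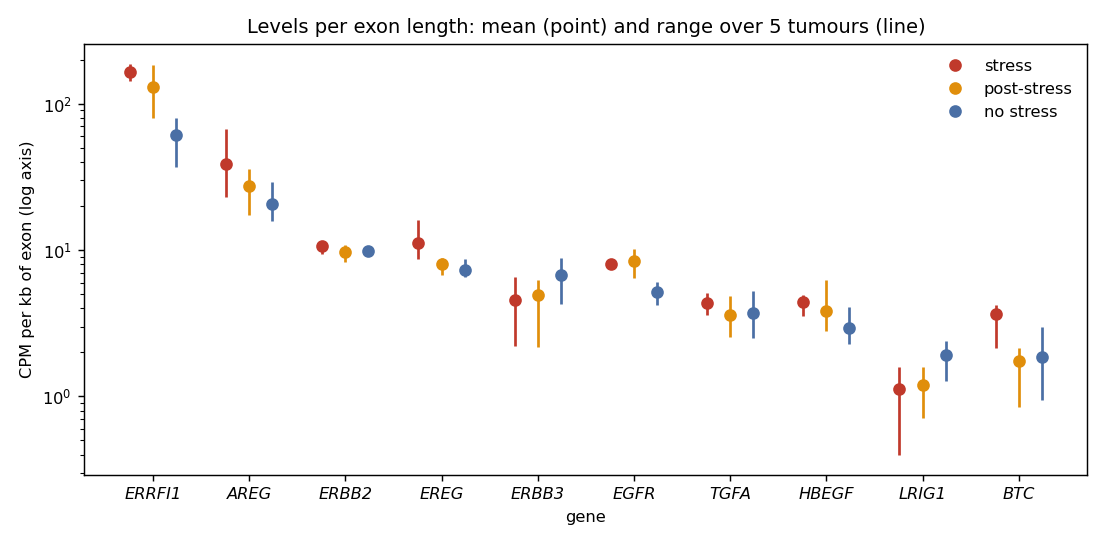
Level of each gene in CPM per kilobase of exon on a log axis, with the mean (point) and the range over 5 tumours (line) in stress, post-stress and no-stress tumours. ERRFI1 and AREG lie above the rest in every group, with stress means of 165 and 38.5.

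EGFR was higher in both restrained groups. It lies at chr7:55019021-55211628 on the plus strand (hg38, GENCODE 29). EGFR had 104, 92.7, 101, 107 and 97.3 CPM in stress tumours and 105, 102, 80.6, 127 and 114 CPM in post-stress tumours, against 63.7, 75.9, 59.5, 53.01 and 71.5 CPM in no-stress tumours. All 10 restrained tumours lay above the highest no-stress tumour, and the stress tumours stood close together. The log2 fold change was 0.63 in stress (SE 0.11, 1.55-fold, 95% interval 0.40 to 0.86, adjusted p = 0.00354) and 0.71 in post-stress (SE 0.11, 1.63-fold, 95% interval 0.48 to 0.94, adjusted p = 0.00765). Stress differed from post-stress by −0.07 (95% interval −0.30 to 0.16, adjusted p = 0.847). Both EGFR calls held in all 24 alternative settings tried, and with the mouse share as a covariate the log2 fold changes were 0.67 in stress and 0.80 in post-stress.

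ERBB2, the family member without a known ligand and the preferred partner of the others, varied least of the 10 genes. It lies at chr17:39687914-39730426. ERBB2 had 114, 119, 118, 97.3 and 99.1 CPM in stress tumours and 103, 85.1, 96.2, 105 and 112 CPM in post-stress tumours, against 94.3, 104, 98.8, 104 and 106 CPM in no-stress tumours. The groups overlapped, and the highest tumour of all 15 was 1.40 times the lowest. The log2 fold change was 0.11 in stress (95% interval −0.06 to 0.28, adjusted p = 0.409) and −0.02 in post-stress (95% interval −0.19 to 0.16, adjusted p = 0.948), so that a shift of EGFR's size lies outside both intervals.

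ERBB3, a relative with little kinase activity of its own that binds neuregulins and recruits PI3-kinase, lies at chr12:56076799-56103505 and was uneven between tumours of 1 group. ERBB3 had 19.95, 21.9, 53.7, 58.9 and 53.1 CPM in stress tumours and 49.2, 56.8, 39.3, 56.4 and 19.7 CPM in post-stress tumours, against 69.9, 45.1, 38.9, 80.1 and 69.01 CPM in no-stress tumours. Stress tumours 1 and 2 and post-stress tumour 5 were the lowest 3 of all 15, and the groups overlapped. Its log2 fold change of −0.54 in stress (SE 0.36, 95% interval −1.32 to 0.24, adjusted p = 0.370) and of −0.45 in post-stress (adjusted p = 0.605) did not pass.

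Among the ligands, AREG (amphiregulin), EREG and BTC lie near each other on chromosome 4. EREG (chr4:74365143-74388751, plus strand) is separated from AREG (chr4:74445134-74455009, plus strand) by 56.4 kb, and BTC (chr4:74744759-74794686, minus strand) lies 289.8 kb further on. The promoter bases before the annotated start of AREG, EREG and BTC are given below beside those of EGFR and ERRFI1, because these genes carry the calls or, for AREG, lie beside one that does. They are RefSeq sequences of GRCh38.p14, 5′ to 3′ on the gene's strand, with motif matches in capitals.
AREG promoter, chr4:74444886-74445133, plus strand: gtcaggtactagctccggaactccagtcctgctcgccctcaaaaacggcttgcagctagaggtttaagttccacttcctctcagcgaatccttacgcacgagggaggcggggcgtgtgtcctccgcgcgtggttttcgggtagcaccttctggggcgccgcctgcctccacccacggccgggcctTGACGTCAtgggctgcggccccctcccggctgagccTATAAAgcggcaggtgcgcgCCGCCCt
EREG promoter, chr4:74364895-74365142, plus strand: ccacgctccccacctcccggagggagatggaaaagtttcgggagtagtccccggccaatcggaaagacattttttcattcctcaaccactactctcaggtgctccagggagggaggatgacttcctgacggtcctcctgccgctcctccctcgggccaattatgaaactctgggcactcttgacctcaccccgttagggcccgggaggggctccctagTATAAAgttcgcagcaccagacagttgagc
BTC promoter, chr4:74794687-74794773, minus strand: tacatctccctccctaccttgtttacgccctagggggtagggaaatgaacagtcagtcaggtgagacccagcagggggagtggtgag
EGFR promoter, chr7:55018767-55019016, plus strand: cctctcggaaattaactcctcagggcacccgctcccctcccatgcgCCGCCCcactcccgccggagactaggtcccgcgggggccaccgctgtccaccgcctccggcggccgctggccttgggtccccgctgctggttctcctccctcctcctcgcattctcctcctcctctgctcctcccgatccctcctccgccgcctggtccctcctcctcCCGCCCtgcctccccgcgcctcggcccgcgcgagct
ERRFI1 promoter, chr1:8026310-8026559, minus strand: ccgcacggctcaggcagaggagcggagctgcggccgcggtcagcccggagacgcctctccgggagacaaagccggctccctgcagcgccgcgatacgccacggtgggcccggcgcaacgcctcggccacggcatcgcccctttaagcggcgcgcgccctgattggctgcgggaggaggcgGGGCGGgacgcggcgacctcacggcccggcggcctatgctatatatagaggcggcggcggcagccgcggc

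Both strands of the 250 bases before each RefSeq start were searched for 7 motifs, in 9 of the 10 genes and in 35116 RefSeq promoters. The motifs were the cyclic AMP response element TGACGTCA (in 1.65% of all promoters), the AP-1 site TGANTCA (6.57%), the HIF core ACGTG (18.5%), the steroid receptor palindrome ACANNNTGT (4.61%), the interferon-stimulated response element core (3.02%), the TATA box TATAAA (10.7%) and the GC box GGGCGG (42.6%). The AREG promoter held the full cyclic AMP response element at −65, a TATA box at −29 and a GC box at −9, counted from the RefSeq start. The EREG promoter held a TATA box at −32, and the BTC promoter held no match of the 7 motifs. A TATA box and the cyclic AMP element occurred together in 50 of 35116 promoters. The EGFR promoter held GC boxes at −204 and −36 and the ERRFI1 promoter a GC box at −70. Of the promoters not printed, ERBB2 held an AP-1 site at −222, LRIG1 an HIF core at −12, and HBEGF, TGFA and LRIG1 held GC boxes. None of these 7 motifs overlapped in the printed sequences. A match of letters is a description and does not show that a factor binds there.

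EREG rose in stress tumours. EREG had 91.02, 68.6, 56.6, 50.02 and 51.2 CPM in stress tumours and 49.04, 38.5, 47.8, 42.4 and 50.5 CPM in post-stress tumours, against 37.7, 49.7, 42.2, 37.6 and 41.6 CPM in no-stress tumours. The lowest stress tumour lay just above the highest no-stress tumour, and post-stress tumours overlapped with no stress. The log2 fold change in stress was 0.60 (SE 0.14, 1.52-fold, 95% interval 0.30 to 0.91, adjusted p = 0.0156). In post-stress it was 0.13 (95% interval −0.18 to 0.43, adjusted p = 0.732). The stress call was lost without no-stress tumours 1 and 5, the 2 with the highest mouse shares (adjusted p = 0.0987).

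AREG peaked in the same stress tumours but spread more widely. AREG had 111, 64.4, 53.6, 38.1 and 50.2 CPM in stress tumours and 49.6, 28.4, 59.1, 33.3 and 54.9 CPM in post-stress tumours, against 25.99, 48.1, 33.2, 30.2 and 33.5 CPM in no-stress tumours. Stress tumour 1 was the highest and stress tumour 2 the next highest of all 15 for AREG and for EREG, and 4 of 5 stress tumours exceeded every no-stress tumour for AREG. The stromal marker DCN had 48.3, 25.2, 18.4, 7.84 and 14.7 CPM in stress tumours 1 to 5, the same order of tumours as AREG and EREG, and its part in these results was not tested. In no-stress tumours DCN had 1.05, 11.4, 5.20, 6.38 and 17.8 CPM, and in post-stress tumours 15.1, 17.6, 20.2, 5.72 and 14.8 CPM. In neither of these groups was its order of tumours that of AREG or EREG. COL1A1, the most abundant stromal marker, did not share the stress order, with 98.5, 97.5, 97.9, 93.8 and 144 CPM in stress tumours 1 to 5. For AREG, the log2 fold change of 0.89 in stress (SE 0.29, 1.85-fold, 95% interval 0.27 to 1.51, adjusted p = 0.0639) did not pass, nor did 0.40 in post-stress (95% interval −0.22 to 1.01, adjusted p = 0.551). The stress value of AREG passed without stress tumour 4 (adjusted p = 0.0314) or no-stress tumour 2 (adjusted p = 0.0471).

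BTC, which binds both EGFR and ERBB4, was at a low level and rose in stress tumours. BTC had 11.4, 11.9, 11.9, 6.02 and 10.3 CPM in stress tumours and 5.595, 2.395, 5.33, 6.03 and 5.28 CPM in post-stress tumours, against 2.67, 8.38, 4.09, 4.799 and 6.396 CPM in no-stress tumours. Stress tumours 1, 2, 3 and 5 exceeded all 10 other tumours outside the stress group, while stress tumour 4 lay among them. The log2 fold change in stress was 0.97 (SE 0.28, 1.95-fold, 95% interval 0.36 to 1.57, adjusted p = 0.0397), and in post-stress it was −0.10 (95% interval −0.71 to 0.51, adjusted p = 0.911). This stress call was lost in 7 of 15 fits that left out 1 tumour, all 7 of them without a tumour of the 2 groups compared. These were the fits without stress tumour 1, 2, 3 or 5 (adjusted p = 0.0878, 0.0827, 0.0837 and 0.0698) and without no-stress tumour 1, 3 or 4 (adjusted p = 0.0929, 0.0978 and 0.0724). The call was also lost with the mouse share as a covariate (adjusted p = 0.0531).

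The other 2 ligands were not called in any comparison. HBEGF, the heparin-binding ligand of EGFR and ERBB4 (chr5:140332843-140346631), had 10.6, 14.6, 13.8, 12.2 and 14.96 CPM in stress tumours and 18.9, 8.42, 8.91, 13.1 and 8.55 CPM in post-stress tumours, against 12.4, 6.85, 9.16, 7.31 and 8.92 CPM in no-stress tumours. Its log2 fold change was 0.57 in stress (95% interval 0.11 to 1.03, adjusted p = 0.104) and 0.38 in post-stress (adjusted p = 0.442), and post-stress tumour 1 was the highest of all. Without that tumour in the shared fit the stress value passed (adjusted p = 0.0415). TGFA (transforming growth factor alpha, chr2:70447280-70554193) had 17.99, 25.4, 21.1, 20.3 and 23.7 CPM in stress tumours and 17.5, 12.7, 24.2, 19.7 and 15.9 CPM in post-stress tumours, against 25.4, 12.4, 26.1, 14.1 and 14.1 CPM in no-stress tumours. No-stress tumours 1 and 3 were at about the level of the highest stress tumour, and the log2 fold changes were 0.24 in stress (95% interval −0.22 to 0.69, adjusted p = 0.523) and −0.04 in post-stress (adjusted p = 0.959).

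ERRFI1 changed most of the 10 genes. It lies at chr1:8004404-8026308 on the minus strand. ERRFI1 had 600.1, 787, 747, 603 and 716 CPM in stress tumours and 766, 737, 559, 338 and 334 CPM in post-stress tumours, against 153, 269, 220.1, 335 and 293 CPM in no-stress tumours. Every stress tumour was far above every no-stress tumour, and of the post-stress tumours 2 lay within the stress range, 1 just below it and 2 beside the highest no-stress tumour. The log2 fold change in stress was 1.44 (SE 0.25, 2.72-fold, 95% interval 0.90 to 1.98, adjusted p = 0.00498), a call that held in all 24 alternatives. In post-stress it was 1.11 (SE 0.25, 2.15-fold, 95% interval 0.57 to 1.64), and the adjusted p of 0.0561 did not pass.

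The split of ERRFI1 in the 5 post-stress tumours ran with the share of mouse counts, and its cause was not tested. In no-stress tumours the order of ERRFI1 followed that share only in part. Tumour 1, with the highest share (30.2%), had the lowest ERRFI1 at 153 CPM, and tumour 4, with 17.6%, had the highest at 335 CPM. Tumour 3, with the lowest share (15.6%), had 220.1 CPM, and tumour 5, with a share next to that of tumour 1, had 293 CPM. Post-stress tumours 1 to 3, with 559 to 766 CPM of ERRFI1, had mouse shares of 12.4%, 15.4% and 14.6%, and tumours 4 and 5, with 338 and 334 CPM, had 23.0% and 22.7%. Stress tumours had mouse shares of 18.6% to 24.6% at 600.1 to 787 CPM of ERRFI1. With the mouse share as a covariate the post-stress log2 fold change was 0.78 (adjusted p = 0.208) and the stress value 1.36 (adjusted p = 0.00346). Leaving out post-stress tumour 4 or 5 made the post-stress difference pass, with adjusted p = 0.0304 and 0.0280. Over all 24 alternatives its adjusted p ran from 2.39e-04 to 0.208.

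LRIG1 (chr3:66378797-66501263) was the scarcer inhibitor and had its highest mean without stress. LRIG1 had 7.002, 2.79, 10.1, 11.2 and 8.18 CPM in stress tumours and 11.2, 6.84, 10.5, 8.396 and 4.99 CPM in post-stress tumours, against 16.8, 8.98, 11.6, 14.3 and 15.7 CPM in no-stress tumours. Of the stress tumours 3 lay below every no-stress tumour. The log2 fold changes of −0.77 in stress (SE 0.30, 0.585-fold, 95% interval −1.41 to −0.13, adjusted p = 0.114) and −0.68 in post-stress (95% interval −1.32 to −0.04, adjusted p = 0.296) did not pass. Stress tumours 1 and 2 and post-stress tumour 5 were among the lowest 4 of all 15 for both LRIG1 and ERBB3.

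**Figure D3:**
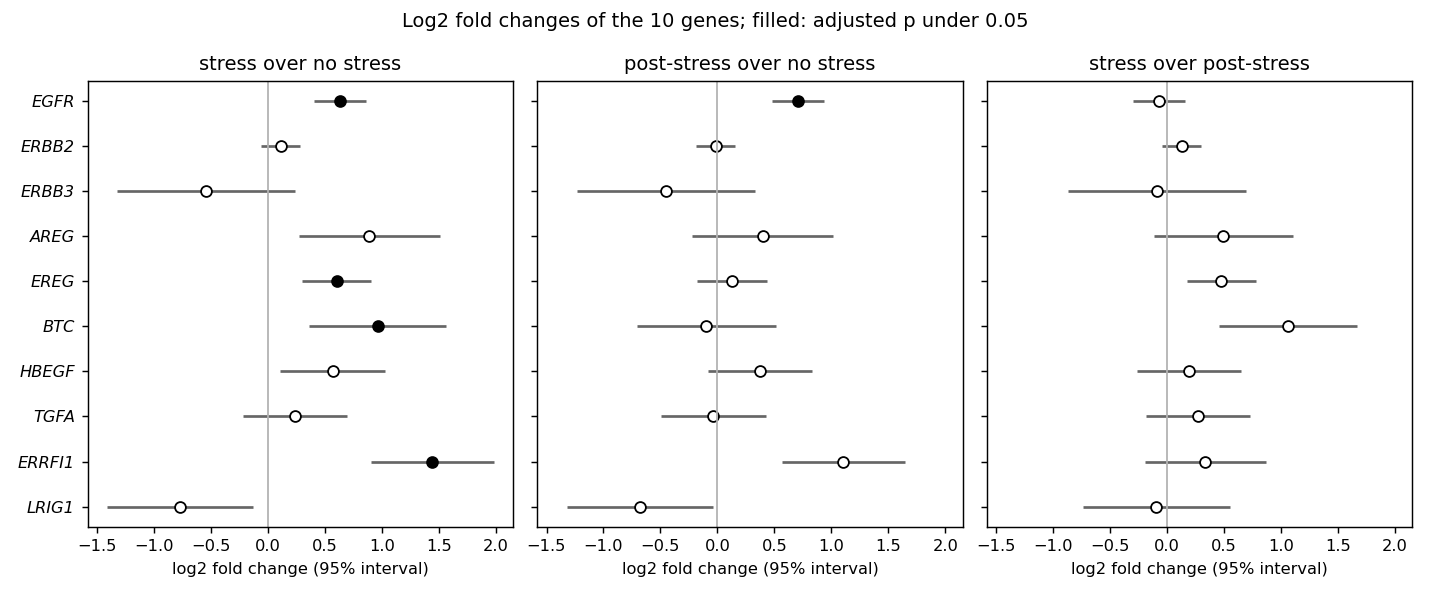
Log2 fold changes of the 10 genes (point) with their 95% intervals (line) for stress over no stress, post-stress over no stress and stress over post-stress, filled where the adjusted p was under 0.05. Filled points are EGFR, EREG, BTC and ERRFI1 for stress over no stress and EGFR for post-stress over no stress; no point is filled for stress over post-stress.

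Between the restrained groups, EREG and BTC were the 2 genes whose 95% interval left out 0. BTC was higher in stress by 1.06 on the log2 scale (95% interval 0.46 to 1.67, 2.09-fold, adjusted p = 0.148) and EREG by 0.48 (95% interval 0.17 to 0.78, adjusted p = 0.194), and neither passed. ERRFI1 differed by 0.34 (95% interval −0.19 to 0.87, adjusted p = 0.659), AREG by 0.49 (adjusted p = 0.553) and LRIG1 by −0.09 (adjusted p = 0.941). Groups without overlap were counted too. For stress above no stress 3 of the 10 genes had none, against 4.09% of all tested genes, and for post-stress above no stress 1 had none, against 1.57%. For stress above post-stress the count was 0, against 0.952%. In the lower direction it was 0 of 10 in each comparison, against 4.7% of all tested genes in stress against no stress, 1.89% in post-stress against no stress and 0.752% in stress against post-stress.

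Genes that share exons with members on the opposite strand could share reads with them, since the strand setting of the counting is not given. AL034417.4, which overlaps ERRFI1, had 3.55 ± 1.03 CPM in stress, 2.66 ± 0.638 CPM in post-stress and 1.02 ± 0.620 CPM in no-stress tumours (SD, n = 5 each) and was called in stress (3.49-fold, adjusted p = 0.00474). It never exceeded 66 counts in a library, where ERRFI1 never had fewer than 2184. EGFR-AS1 never exceeded 8 counts, where EGFR never had fewer than 740. SLC25A26, opposite LRIG1, averaged 7.24 CPM in stress, 5.80 in post-stress and 4.69 in no-stress tumours (stress against no stress adjusted p = 0.567). LRIG1 itself averaged 7.86 CPM in stress, 8.39 in post-stress and 13.5 in no-stress tumours. The means of SLC25A26 and LRIG1 were thus close in stress tumours and furthest apart in no-stress tumours. Opposite ERBB2, PGAP3 averaged 44.9 CPM in stress, 45.9 in post-stress and 47.6 in no-stress tumours, with up to 893 counts, and MIEN1 41.9, 40.1 and 42.8 CPM in the same order, with up to 742 counts. ERBB2 had at least 1244 counts, and neither overlapping gene was called in stress against no stress (adjusted p = 0.619 for PGAP3 and 0.928 for MIEN1).

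The genes next to the members did not all move with them. On each side the nearest tested protein-coding gene without overlap was taken. SLC45A1, a sugar transporter gene 291.5 kb from ERRFI1, had 6.83 ± 1.06 CPM in stress, 5.94 ± 1.75 CPM in post-stress and 2.31 ± 0.666 CPM in no-stress tumours (SD, n = 5 each). It was called in stress (2.95-fold, adjusted p = 0.00134) and in post-stress (2.57-fold, adjusted p = 0.00921). PARK7, 18.9 kb away on the other side, was not called in stress (0.944-fold, adjusted p = 0.589) or post-stress (1.07-fold, adjusted p = 0.651). Beside EGFR, LANCL2 fell in stress (0.737-fold, adjusted p = 0.0289) while SEC61G was not called (adjusted p = 0.238). GRB7, an adaptor gene 7.50 kb from ERBB2, rose in stress (17.7 ± 2.93 CPM in stress and 11.5 ± 1.59 CPM in no-stress tumours, SD, n = 5 each, 1.54-fold, adjusted p = 0.0287), although ERBB2 was not called. PA2G4, 0.814 kb from ERBB3, fell in stress (0.809-fold, adjusted p = 0.0321), where ERBB3 was not called. In the ligand cluster MTHFD2L (1.08-fold, adjusted p = 0.515) and PARM1 (1.85-fold, adjusted p = 0.313) were not called in stress. The remaining neighbours STARD3, RPS26, PFDN1, ANKHD1, FAM136A, ADD2, MAGI1 and KBTBD8 were not called in stress either (adjusted p = 0.113 to 0.907). Of all tested genes 10.5% were called there. ERRFI1-DT, 0.43 kb from ERRFI1, was not tested and averaged 0.829 CPM in stress and 0.256 CPM in no-stress tumours. Calls on these neighbours and on the similar profiles below were not repeated under the alternatives.

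For each of the 4 called genes, the 4 genes with the most similar profile were found among 12656 human genes. Similarity was the root-mean-square (RMS) difference of mean-centred log2 CPM over the 15 tumours, where a smaller value is closer. A search over so many genes always returns close profiles, and the tumours share groups and libraries, so no test of likeness is given. Group differences like those of the called gene follow in part from this choice. The fold changes and adjusted p-values of the genes found therefore only describe them and are no separate evidence. Nearest to ERRFI1 were EGLN3, a prolyl hydroxylase that marks HIF for degradation (RMS 0.233), SLC45A1 (0.247), MXI1, a MAX-binding repressor (0.278), and ANKRD37 (0.291). In stress EGLN3 was 2.27-fold (adjusted p = 0.0143), MXI1 2.18-fold (adjusted p = 0.00456) and ANKRD37 2.19-fold (adjusted p = 0.00964) the no-stress level. The SD of ERRFI1 itself over the 15 tumours was 0.761 log2 units.

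Nearest to BTC were APOL3 (RMS 0.217), PARP12, an ADP-ribosyltransferase (0.252), UBE2L6, the enzyme that passes ISG15 to its targets (0.256), and IFI35, an interferon-induced protein (0.272), against an SD of 0.7003 for BTC. Being chosen for likeness over these tumours, they share the low value of BTC in stress tumour 4 by that choice: IFI35 had 99.2 CPM there and 193 to 264 CPM in the other stress tumours, and UBE2L6 had 91.9 CPM and 173 to 212 CPM. In stress against no stress IFI35 was 2.01-fold (adjusted p = 0.0180), UBE2L6 1.90-fold (adjusted p = 0.0185) and PARP12 1.87-fold (adjusted p = 0.0340), while APOL3 was not called (adjusted p = 0.122). Nearest to EGFR were MNT (RMS 0.128), P4HA2 (0.144), MYADM (0.151) and SMAD3, a mediator of TGF-beta signals (0.156), against an SD of 0.372. MYADM was called in stress (1.55-fold, adjusted p = 0.00579) and in post-stress (1.69-fold, adjusted p = 0.00921), and so was SMAD3 (1.42-fold, adjusted p = 0.00579 in stress and 1.38-fold, adjusted p = 0.0337 in post-stress). Nearest to EREG were RRAGC (0.151), GRN (0.163), MAP3K14-AS1 (0.171) and NFKBIL1 (0.173), against an SD of 0.341.

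**Figure D4:**
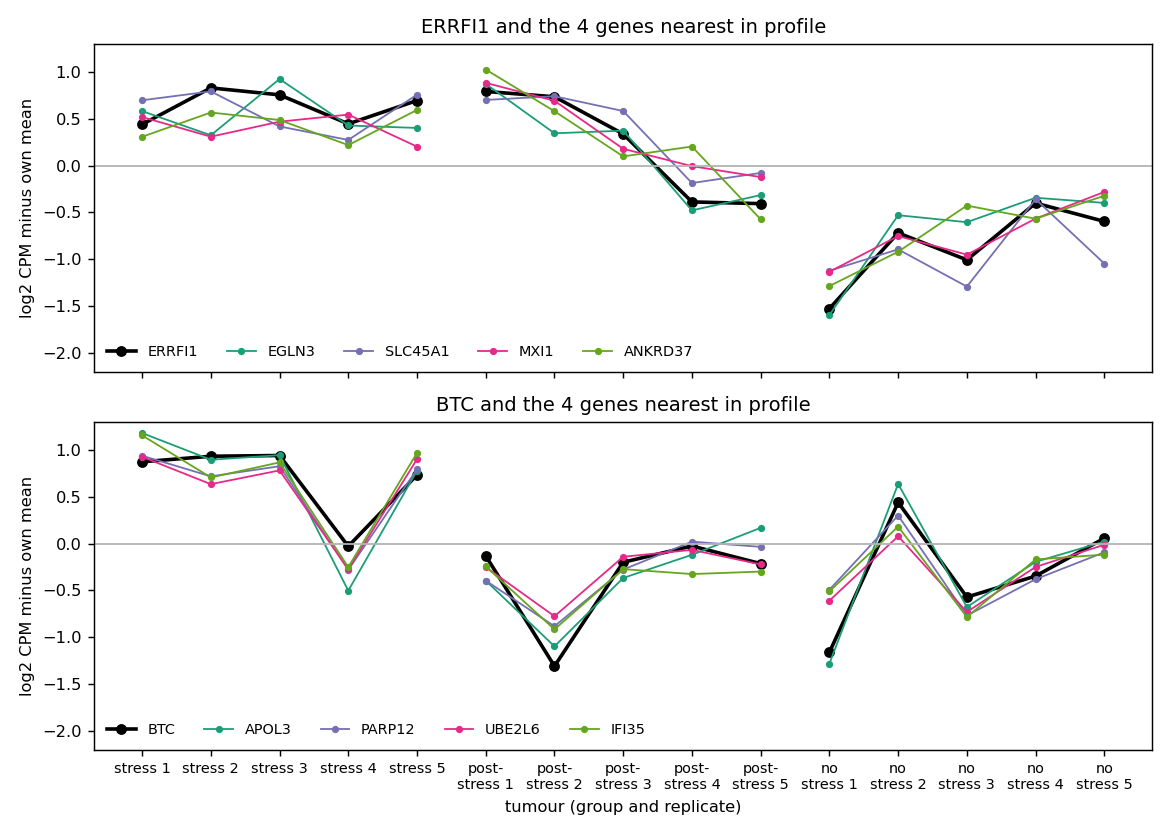
Mean-centred log2 CPM of ERRFI1 (top) and BTC (bottom) in each of the 15 tumours with the 4 genes of smallest RMS difference from each. Lines only join the tumours of a group, whose numbers carry no order; stress tumour 4 is low for BTC and its 4 neighbours, and post-stress tumours 4 and 5 lie below post-stress tumours 1 to 3 for ERRFI1.

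The rest of the pathway was read through 5 lists of 57 genes, of which 52 were tested. In stress against no stress 4 rose and 1 fell, that is 9.62% of those tested, against the 10.5% of all genes called. DESeq2's Wald test called 11 of the 52 and 2169 of all 15435 genes, limma-voom 6 and 1573, and an unadjusted p under 0.05 was reached by 17 and 4033. DUSP6, the phosphatase that switches off ERK and is itself induced by ERK, was the 1 of 10 ERK output genes that passed. It had 79.4 ± 18.5 CPM in stress, 56.9 ± 6.80 CPM in post-stress and 43.2 ± 9.24 CPM in no-stress tumours (SD, n = 5 each), with no overlap between stress and no stress (log2 fold change 0.88, SE 0.16, adjusted p = 0.00522). Among the others, SPRY2, a feedback inhibitor of receptor signalling (1.51-fold, adjusted p = 0.0739), and PHLDA1 (1.43-fold, adjusted p = 0.0982) did not pass, nor did the cyclin gene CCND1 (adjusted p = 0.972). Over the 10 ERK output genes the median was 0.29 on the log2 scale, against −0.01 over all tested genes and 0.31 over the tested leukocyte and stroma markers.

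Of 8 genes for ligand shedding, ADAM10, a protease that releases BTC, rose. It had 172 ± 12.5 CPM in stress, 144 ± 21.5 CPM in post-stress and 140.4 ± 7.09 CPM in no-stress tumours (SD, n = 5 each, 1.22-fold, adjusted p = 0.0471), and the call was lost in 10 of 15 fits without 1 tumour (adjusted p up to 0.0982), all but those without stress tumour 4 or post-stress tumour 1, 2, 3 or 5. ADAM17, the main protease for AREG, EREG, HBEGF and TGFA, was not called (adjusted p = 0.763). Of 13 adaptors 1 rose, NCK1, which links receptors to the actin skeleton, with 91.6 ± 14.0 CPM in stress, 73.4 ± 7.25 CPM in post-stress and 69.1 ± 4.19 CPM in no-stress tumours (SD, n = 5 each, 1.33-fold, adjusted p = 0.0156). The NCK1 call was lost without no-stress tumours 1 and 5 together (adjusted p = 0.0761). Of 18 tested genes of receptor attenuation 1 rose and 1 fell. SOCS5, which can promote EGFR degradation, rose 1.25-fold (adjusted p = 0.0229), and PTPN1, a phosphatase that removes phosphate from EGFR, fell to 41.7 ± 2.45 CPM in stress, against 49.3 ± 2.81 CPM in no-stress tumours (SD, n = 5 each, 0.846-fold, adjusted p = 0.0321). The SOCS5 call was lost without stress tumour 1 or 3 or no-stress tumour 1 (adjusted p up to 0.0662), and the PTPN1 call without stress tumour 1, 3 or 5 or no-stress tumour 1, 2 or 3 (adjusted p up to 0.102). The ADAM10, SOCS5 and PTPN1 calls were also lost without no-stress tumours 1 and 5 together (adjusted p up to 0.171), and those of ADAM10 and PTPN1 without the low-count filter.

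Other receptors and ligands of the family were scarce apart from NRG1, the neuregulin that binds ERBB3. NRG1 had 166 ± 18.4 CPM in stress, 127 ± 36.3 CPM in post-stress and 134 ± 17.3 CPM in no-stress tumours (SD, n = 5 each), and was not called (stress against no stress adjusted p = 0.241). EGF averaged 5.05 CPM in stress, 5.10 in post-stress and 6.14 in no-stress tumours. ERBB4, EPGN, NRG3 and NRG4 did not pass the filter, and NRG3 had 0 counts in all libraries. In post-stress against no stress 0 of the 52 tested genes were called (4 with an unadjusted p under 0.05, 1 by DESeq2, 0 by limma-voom). Over all 15435 tested genes these counts were 2341, 504 and 103. In stress against post-stress 0 were called as well (10 with an unadjusted p under 0.05, 0 by DESeq2, 0 by limma-voom), where the counts over all tested genes were 1716, 207 and 6.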

How the data were processed

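RNA of 15 A549 tumours was measured, 1 library each, with groups taken from the sample titles. The deposited values are raw counts per gene that the authors made, per the submitters' processing notes, with Trimmomatic 0.39, HISAT2 2.2.1 and featureCounts 2.0.6 on hg38 and mm10, with strand setting, annotation release and joint alignment not given in the sources used here. Count columns named Control, Pre and Post were taken as no stress, stress and post-stress, from the treatment protocol, which gives restraint before transplantation for the stress group.

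Human counts were filtered with filterByExpr (15435 genes, 99.8% of human counts, 12877165 to 15892705 human counts per library), scaled by TMM and fitted over all 15 libraries with the robust quasi-likelihood method of edgeR 4.0.16, under R 4.3.3 with limma 3.58.1. The common biological coefficient of variation was 0.187. Log2 CPM used a prior count of 2. The fit was tested on simulated data. Lengths and coordinates came from GENCODE 29 and promoters from RefSeq GRCh38.p14, with 9 of 10 genes matched. The text names all 10 genes, called members of the 5 pathway lists (up to 4 per list by p), and for each called gene the 4 nearest profiles with a mean logCPM of at least 1; chosen after their values were seen were the uncalled genes named beside them. Neighbouring and overlapping genes were taken by position. Some marker genes are not reported here. The genes and lists were chosen with earlier results of these data known. As alternatives, DESeq2 1.42.0 (its size factors or its Wald test), limma-voom, other filters, a fit of only the groups compared, the replicate number as a block, a covariate for the mouse share and leaving out each library were tried, and, chosen after seeing the data, leaving out no-stress tumours 1 and 5 together.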

Additional observations from a re-analysis of the deposited data

Results flagged for a closer look

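In each of the 30 gene and group combinations, 5 tumours each, the highest and lowest tumour were compared with the rest by the gap to the nearest tumour as a share of the group's range. A tumour stood apart when this share exceeded 0.710, which chance alone gives in about 1 in 20 groups, and 2 of 30 did so. BTC in stress tumour 4 was 6.02 CPM, below the 10.3 to 11.9 CPM of the other stress tumours (share 0.726). BTC in post-stress tumour 2 was 2.40 CPM, below the 5.28 to 6.03 CPM of the other post-stress tumours (share 0.792).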

How the results depend on the processing

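Within stress against no stress, EGFR and ERRFI1 were called in all 24 alternatives, EREG in 23 and BTC in 13; EGFR was called in all 24 for post-stress against no stress (adjusted p 1.88e-06 to 0.0385). BTC was lost without the low-count filter (adjusted p = 0.0836), with the replicate block (0.0916), with the mouse share as a covariate (0.0531) and without no-stress tumours 1 and 5 (0.137). No call changed direction in the alternatives run. The number of the 10 genes called in stress against no stress was 4, ran from 3 to 5 without 1 tumour, and was 2 (EGFR and ERRFI1) without no-stress tumours 1 and 5 and 5 (AREG added) with DESeq2's Wald test. For post-stress against no stress it was 1, ran from 1 to 2, and was 2 (ERRFI1 added) with DESeq2's Wald test and with a CPM of at least 1. For stress against post-stress it was 0, ran from 0 to 1 without 1 tumour (BTC without stress tumour 4, adjusted p = 0.0445), and was 1 with DESeq2's Wald test.

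Counts over all human genes moved more, and the cause was not tested. In stress against no stress 1613 genes became 990 with the replicate block and 546 without no-stress tumours 1 and 5, and ran from 661 to 1834 without 1 tumour (661 without no-stress tumour 1, 782 without stress tumour 1, 864 without no-stress tumour 3, 1043 without stress tumour 3 and 1072 without stress tumour 5). In post-stress against no stress 130 became 504 with DESeq2's Wald test, 49 with only these groups in the fit, 57 with the block, 38 with the mouse share as a covariate and 32 without no-stress tumours 1 and 5. It ran from 37 to 144 without 1 tumour (54 and 51 without post-stress tumours 1 and 2; 37, 83 and 45 without no-stress tumours 1, 2 and 3). In stress against post-stress 6 became 207 with DESeq2's Wald test, 36 with no filter, 1 with only these groups, 0 with the block and 0 with the mouse share, and ran from 0 to 189 (189 without stress tumour 4, 13 without no-stress tumour 2, 1 without post-stress tumour 5, and 0 without stress tumour 2, 3 or 5 or post-stress tumour 2 or 3).

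Tumours of different groups with the same replicate number did not deviate together (correlations −0.191 to 0.124; 1 of 15 tumour pairs was its own best match), so the numbers were not taken as a pairing; with the replicate block 3, 1 and 0 of the 10 genes were called in the 3 comparisons. With the block the ADAM10 and PTPN1 calls were lost (adjusted p = 0.0755 and 0.0667). The lowest counts of any of the 10 genes in a library were 35 for BTC and 40 for LRIG1.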
